A study of Mus musculus with 9 samples.

Results

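Calpains are calcium-dependent cysteine proteases that cut their targets at a few sites rather than degrading them. The classical enzymes, calpain-1 and calpain-2, each pair a large catalytic subunit with the small subunit encoded by Capns1, and they are inhibited by calpastatin, the product of Cast. Calpain-6 lacks the catalytic cysteine and is known in mouse cells for binding and stabilising microtubules. The calpain family was measured here in the enamel organ, the epithelial tissue that contains the enamel-forming ameloblasts, through 9 of the 54532 genes of the count table: the large calpains Capn1, Capn2, Capn5, Capn6, Capn7, Capn10 and Capn15, the small subunit Capns1 and the inhibitor Cast. The members were taken by symbol, and Capn6 was picked because it was lower in the stressed mice, so its values are given as a description with no test. All 9 passed the filter on low counts.

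RNA was sequenced from first-molar enamel organs of male C57BL/6 pups at postnatal day 12, 1 library per mouse. The 5 early life adversity (ELA) pups were raised from postnatal day 2 to 12 with limited bedding and nesting material, and the 4 control pups were not. Pups of both groups were the offspring of Crh-IRES-Cre +/+ dams and Ai14 tdTomato males, and so carried a Cre recombinase expressed from the corticotropin-releasing hormone gene and a red fluorescent reporter. The sample titles begin with t-205 (2 pups) or t-203 (3 pups) in ELA and with c-204 (2 pups) or c-202 (2 pups) in controls. The labels do not say what these numbers stand for. They may mark litters, since the methods name more than 1 litter per group for qPCR, and pups of a litter would not be independent. Mice were treated as independent, so p-values measure the spread between these samples only. Depth, as total counts per library, ranged over 18056774 to 32110160 in ELA mice, against 18683431 to 20831736 in control mice. Levels are CPM, read counts scaled to the TMM-adjusted size of each library, and differences are log2 fold changes of ELA over control from edgeR's quasi-likelihood test with Benjamini-Hochberg adjustment over 15909 genes. Ameloblast markers were read as a check for ameloblast RNA, not for the absence of other cells. The secretory-stage markers (highest Ambn and Amelx) summed to 71280 to 129900 CPM in ELA and 50300 to 64510 CPM in controls, and the maturation-stage markers (highest Odam and Amtn) summed to 24400 to 42840 CPM in ELA and 29850 to 41480 CPM in controls. Genes listed as markers of other tissues were detected too. Whether enamel organ cells expressed them was not tested. Mesenchymal markers summed to 12130 to 23540 CPM in ELA and 15860 to 31220 CPM in controls. Osteoblast markers summed to 2383 to 3476 CPM in ELA and 2462 to 3335 CPM in controls. Alpl alone averaged 1651 CPM in ELA and 1322 CPM in controls. For odontoblast markers the sums were 619.1 to 4119 CPM in ELA and 1000 to 3154 CPM in controls.

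The catalytic cysteine separates Capn6 from the other large calpains, and the bases around it are shown for that reason. The codon that aligned with the active-site cysteine codon of Capn2 is in capitals, with 24 bases on either side, read 5′ to 3′ along the coding strand (GENCODE M21, GRCm38).
Capn1: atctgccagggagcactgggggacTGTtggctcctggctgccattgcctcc
Capn2: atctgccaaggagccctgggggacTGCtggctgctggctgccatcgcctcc
Capn5: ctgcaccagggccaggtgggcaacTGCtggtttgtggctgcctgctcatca
Capn6: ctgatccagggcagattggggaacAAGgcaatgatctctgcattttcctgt
Capn7: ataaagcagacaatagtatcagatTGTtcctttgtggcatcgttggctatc
Capn10: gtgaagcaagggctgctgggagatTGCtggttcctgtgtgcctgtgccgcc
Capn15: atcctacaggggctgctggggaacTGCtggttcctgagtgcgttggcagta
In 6 of the 7 genes the marked codon, TGC or TGT, encodes cysteine, and in Capn6 it is AAG, which encodes lysine. In Capn6 it is codon 81 in exon 3, at chrX:143810899-143810901 on the minus strand, and in Capn2 it is codon 105 in exon 3, at chr1:182492863-182492865 on the minus strand. The other codons lie at chr19:6013700-6013702 (Capn1, codon 115, exon 4), chr7:98151866-98151868 (Capn5, codon 81, exon 3), chr14:31354110-31354112 (Capn7, codon 290, exon 8), chr1:92938020-92938022 (Capn10, codon 73, exon 2) and chr17:25963249-25963251 (Capn15, codon 562, exon 3). The active-site histidine aligned with a CAT codon in 6 genes and with TAT, a tyrosine codon, at codon 252 of Capn6, while the active-site asparagine was kept in all 7. Over the aligned residues, identity to Capn2 was 61.6% for Capn1, 43.9% for Capn5, 39.7% for Capn6, 37.6% for Capn15, 37.2% for Capn10 and 30.6% for Capn7. The aligned residues numbered 696 for Capn1, 453 for Capn5 and for Capn6, 319 for Capn15, 441 for Capn10 and 265 for Capn7. These percentages therefore do not compare whole proteins.

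Capn6 (ENSMUSG00000067276, chrX:143802231-143827414, minus strand) was the member whose groups did not overlap. Its level was 9.46, 12.4, 8.99, 8.83 and 11.5 CPM in ELA mice t-205-1-1, t-205-1-3, t-203-1-3, t-203-1-4 and t-203-1-5, against 28.6, 23.1, 22.0 and 17.4 CPM in control mice c-204-1-1, c-204-1-2, c-202-1-1 and c-202-1-2. Every ELA mouse was below every control mouse, and the nearest pair was t-205-1-3 and c-202-1-2. These levels rest on 173 to 373 reads per ELA library and 363 to 542 reads per control library. The means were 10.2 ± 1.61 CPM in ELA (SD, n = 5) and 22.8 ± 4.60 CPM in controls (SD, n = 4), a ratio of 0.450. On the log2 scale the fitted fold change was -1.15 (SE 0.174). Of all genes tested, 1.29% were lower in ELA with no overlap between the groups, and nothing is read from this for Capn6, which was chosen by this contrast. By title number, the mean was 10.9 CPM in t-205 and 9.78 CPM in t-203, against 25.9 CPM in c-204 and 19.7 CPM in c-202. Since every ELA mouse was below every control mouse, the order of these means was fixed in advance and is no separate check. In bulk tissue, fewer cells of a type and less RNA per cell cannot be told apart.

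**Figure D1:**
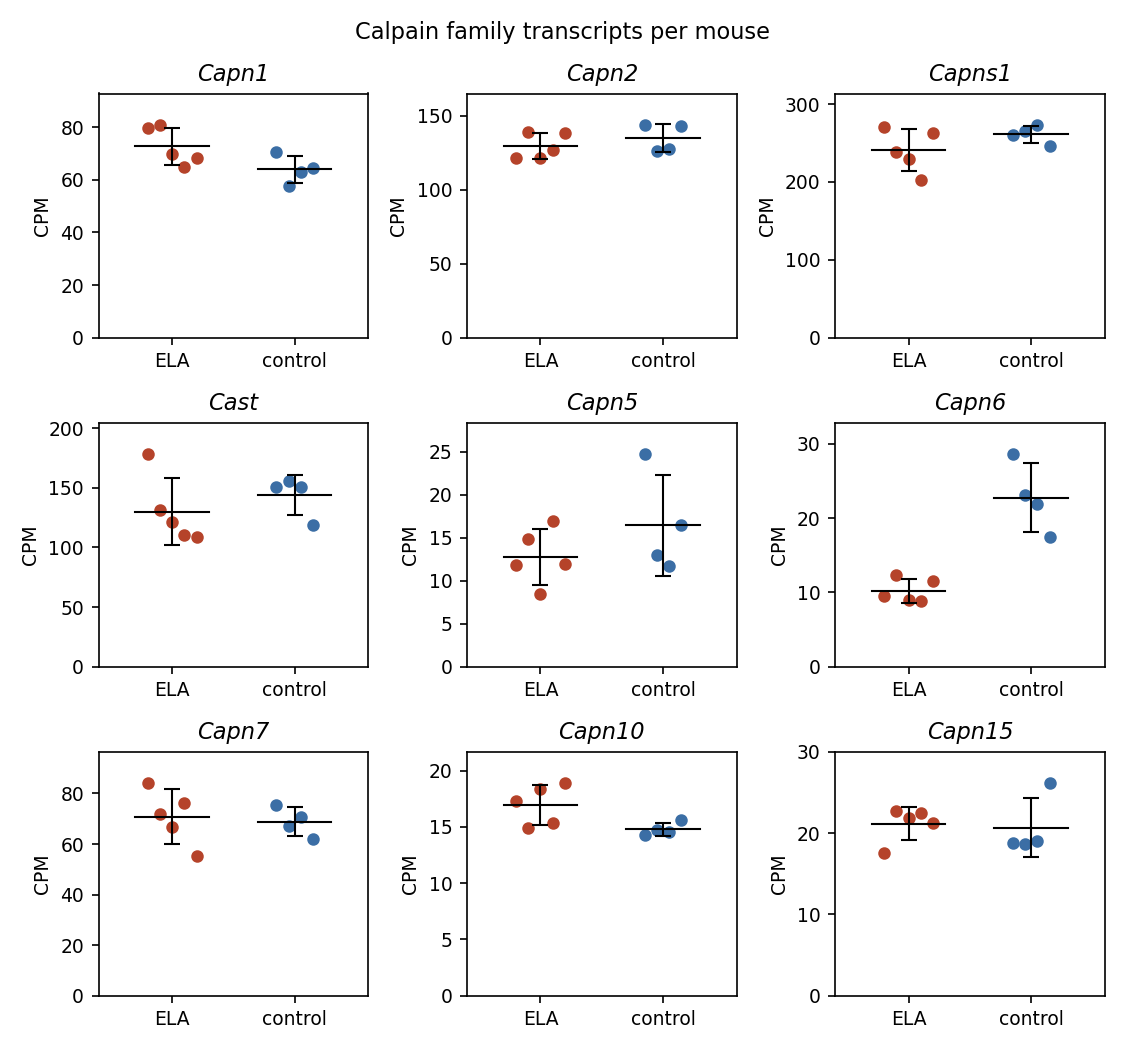
Levels of the 9 calpain family genes in CPM (linear axes from 0), with ELA mice at the left and control mice at the right of each panel and 1 point per mouse. Lines mark group means and whiskers 1 SD. The Capn6 points lie between 8.83 and 12.4 CPM in ELA and between 17.4 and 28.6 CPM in controls, and the ELA and control points of each other gene overlap.

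The catalytic subunits of the classical calpains did not pass the test. Capn1 (chr19:5988546-6015825, minus strand), which encodes the large subunit of calpain-1, was at 79.5, 80.7, 69.7, 64.9 and 68.4 CPM in ELA and 70.5, 57.7, 63.0 and 64.4 CPM in controls. Both groups covered 64.9 to 70.5 CPM, and the log2 fold change was 0.18 with a 95% interval of -0.06 to 0.43 (edgeR adjusted p = 0.899). Capn2 (chr1:182467260-182517608, minus strand), which encodes the large subunit of calpain-2, was at 121.5, 139.4, 121.8, 126.6 and 138.5 CPM in ELA and 143.6, 126.2, 127.6 and 142.9 CPM in controls. Its groups overlapped too, with a log2 fold change of -0.06 (95% interval -0.30 to 0.18, edgeR adjusted p = 0.999).

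The small subunit and the inhibitor did not pass the test either. Capns1 (chr7:30186936-30198811, minus strand) was at 270.6, 239.0, 229.3, 202.3 and 262.8 CPM in ELA and 260.1, 265.9, 272.7 and 246.7 CPM in controls, a log2 fold change of -0.12 (95% interval -0.39 to 0.15, edgeR adjusted p = 0.995). 3 ELA mice were below all controls, and t-205-1-1 and t-203-1-5 lay within the control range. Cast (chr13:74692368-74808810, minus strand) was at 178.0, 131.7, 121.1, 110.6 and 108.5 CPM in ELA and 150.6, 156.0, 150.6 and 118.8 CPM in controls. Mouse t-205-1-1 was above all controls while t-203-1-4 and t-203-1-5 were below them, and the log2 fold change was -0.15 (95% interval -0.51 to 0.21, edgeR adjusted p = 0.999).

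The 4 remaining large calpains have other partners and roles. Capn5 (chr7:98121559-98178274, minus strand), the mammalian relative of the nematode sex-determination protease TRA-3, was the most variable member. Its CPM values were 11.8, 14.8, 8.42, 16.9 and 11.9 in ELA and 24.7, 12.96, 11.7 and 16.4 in controls, a coefficient of variation of 25.5% in ELA and 35.6% in controls. Over the 10893 genes with a mean of 5 to 250 CPM, the median coefficient of variation was 18.6% in ELA and 14.7% in controls. These genes span a wide range of levels and are not matched to Capn5. Capn6 had 15.7% in ELA and 20.2% in controls. The log2 fold change of Capn5 was -0.36, with a 95% interval of -0.91 to 0.18 that spans more than any other member's (edgeR adjusted p = 0.931). Without the highest control mouse, c-204-1-1, it was -0.10. Capn7 (chr14:31336638-31371986, plus strand), which works with the membrane-remodelling ESCRT-III proteins, was at 55.2 to 84.0 CPM in ELA (median 71.8) and 62.0 to 75.5 CPM in controls (median 69.0). Its log2 fold change was 0.04 (95% interval -0.25 to 0.33). Capn10 (chr1:92934376-92947941, plus strand), studied in human diabetes genetics, was at 17.3, 14.9, 18.4, 15.4 and 18.9 CPM in ELA and 14.2, 14.7, 14.5 and 15.6 CPM in controls. 3 ELA mice were above all controls, and the log2 fold change was 0.20 (95% interval -0.08 to 0.48, edgeR adjusted p = 0.911). Capn15 (chr17:25958364-25985796, minus strand), the relative of the Drosophila small optic lobes protein, was at 17.6 to 22.7 CPM in ELA and 18.7 to 26.1 CPM in controls, with a log2 fold change of 0.03 (95% interval -0.28 to 0.35).

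Across the 8 members other than Capn6, 0 passed an edgeR adjusted p of 0.05, where 0.0629% of all genes tested did (0.0377% higher and 0.0251% lower in ELA). None reached an unadjusted p below 0.05, against 6.44% of all genes, and 0 were called by DESeq2 (0.736% of all genes) or limma-voom (0.0566% of all genes). The groups overlapped in all 8, against 2.68% of genes with no overlap. This overlap depends on the scaling for Capns1, which as TPM was at 217.5 to 273.0 in ELA and 274.8 to 320.6 in controls. TPM moved every log2 difference of ELA minus control by -0.12, and 3.13% of all genes were then lower in ELA with no overlap. The fitted log2 fold change was positive for 4 and negative for 4, ranged over -0.36 to 0.20, and had a median of -0.01, beside 0.01 over all genes.

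**Figure D2:**
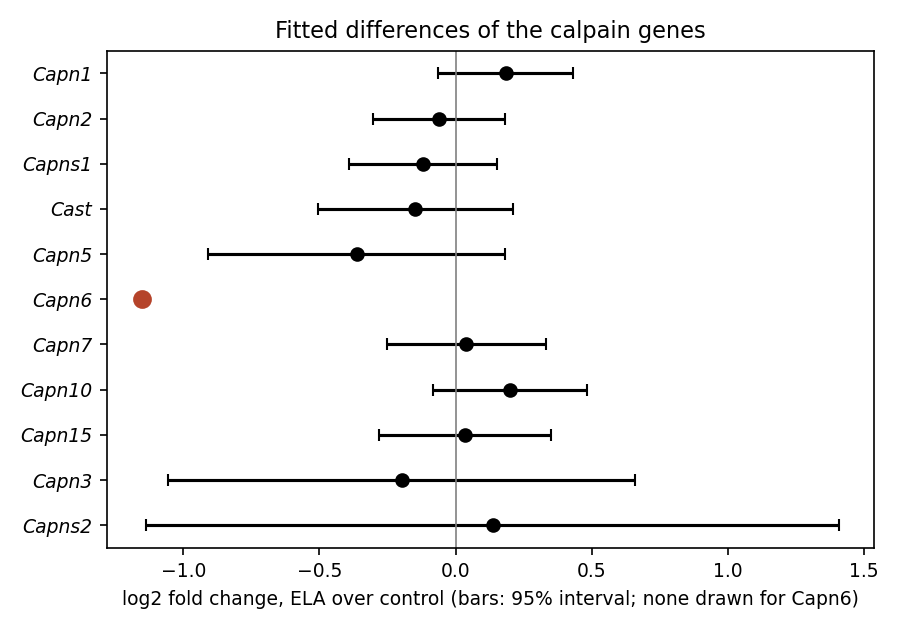
Log2 fold change of ELA over control for each tested calpain gene (horizontal axis), with bars for the 95% interval; Capn6 is drawn in red with no bar because it was chosen by this value. Capn6 lies at -1.15, and the intervals of the 8 other members, and of Capn3 and Capns2, all include 0.

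Of 8 further calpain genes listed, Capn3 and Capns2 passed the filter on low counts. Capn3, known for its role in skeletal muscle, averaged 1.27 ± 0.513 CPM in ELA (SD, n = 5) and 1.47 ± 0.505 CPM in controls (SD, n = 4), with a log2 fold change of -0.20 (95% interval -1.06 to 0.66). Capns2, a second small-subunit gene, averaged 4.31 ± 3.91 CPM in ELA (SD, n = 5) and 3.91 ± 2.36 CPM in controls (SD, n = 4), and the fitted log2 fold change was 0.14 (SE 0.580). Per length, Capns2 averaged 4.29 FPKM in ELA and 3.89 FPKM in controls. In each group this was below the mean of Cast and above those of Capn10, Capn15, Capn5 and Capn6. The ELA median was 2.92 FPKM, and the highest value was 11.1 FPKM in ELA mouse t-205-1-3. Capn8, Capn9, Capn11 and Capn12 were under the filter, and Capn13 had 0 counts in all 9 libraries. Capn14 was not analysed here.

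Levels of different genes were compared per length, as FPKM, which divides the CPM by the length of the gene in kilobases. In ELA the order of mean FPKM was Capns1 (97.2), Capn1 (22.8), Capn2 (20.4), Capn7 (14.5), Cast (11.3), Capn10 (3.90), Capn15 (3.70), Capn5 (2.33) and Capn6 (1.31). In controls it was Capns1 (105.5), Capn2 (21.3), Capn1 (20.04), Capn7 (14.1), Cast (12.5), Capn15 (3.61), Capn10 (3.40), Capn5 (3.00) and Capn6 (2.92). In each group the values of neighbours in this order did not overlap only between Capns1 and the next gene, between Capn7 and the gene above it, and between Cast and the gene below it. The neighbours Capn1 and Capn2, Capn7 and Cast, and those below Cast did not differ beyond their spread between mice, although some pairs had 1 order within every library of a group: Capn7 was above Cast in both groups, Capn15 above Capn5 and Capn5 above Capn6 in ELA, and Capn2 above Capn1 in controls. This order depends on the lengths used. With the length of the principal GENCODE transcript in place of the table's, an alternative chosen after seeing the data, Capn6 (3561 bases, against 7795) came to place 8 in ELA (2.87 FPKM) and place 6 in controls (6.39 FPKM). Cast (2910 bases, against 11470) came to place 2 in both groups (44.7 FPKM in ELA and 49.5 FPKM in controls) and was then above Capn7 in all 9 libraries. Capn2 (3225 bases, against 6345) was at 40.2 FPKM in ELA and 41.9 FPKM in controls, above Capn1 (23.7 FPKM in ELA and 20.9 FPKM in controls) in both groups.

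**Figure D3:**
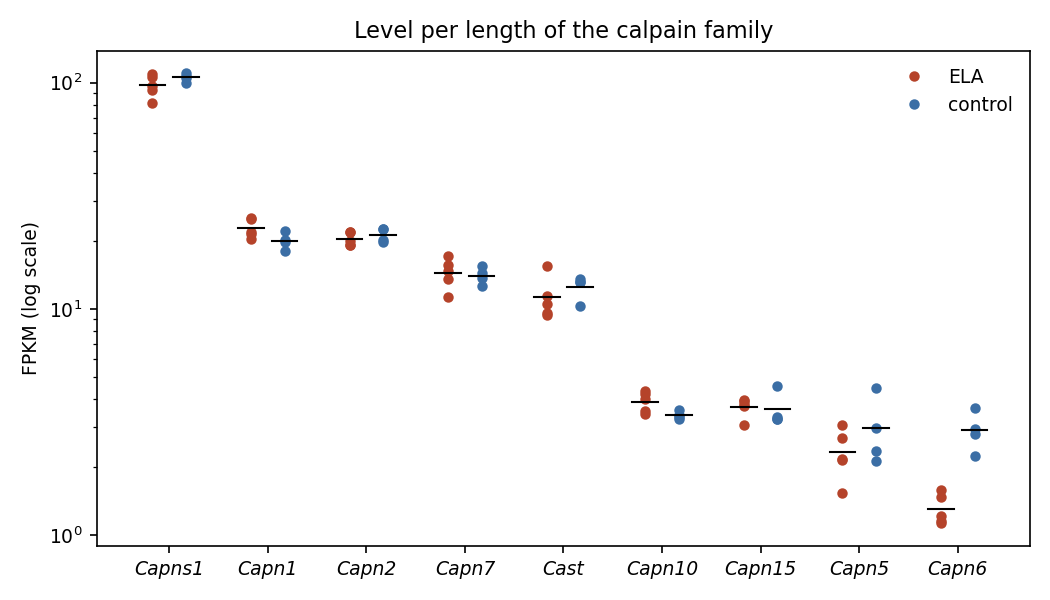
FPKM of the 9 members on a log axis, with ELA points left of control points for each gene 1 point per mouse and lines at the means. Capns1 is highest at a mean of 97.2 in ELA and 105.5 in controls, and Capn6 is lowest at 1.31 in ELA and 2.92 in controls.

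The balance among members can be read from ratios within a library. Capn6 made up 1.90 ± 0.268% of the summed FPKM of the 7 large calpains in ELA (SD, n = 5) and 4.27 ± 0.729% in controls (SD, n = 4), with ranges of 1.68 to 2.23% and 3.25 to 4.90%. The other 6 large calpains summed to 67.6 ± 3.47 FPKM in ELA (SD, n = 5) and 65.4 ± 4.56 FPKM in controls (SD, n = 4). The ratio of Capns1 to Capn1 plus Capn2 was 2.25 ± 0.216 in ELA and 2.57 ± 0.265 in controls, and that of Cast to Capn1 plus Capn2 was 0.262 ± 0.0523 in ELA and 0.306 ± 0.0499 in controls. Capn2 over Capn1 was 0.769 to 1.02 in ELA and 1.02 to 1.11 in controls, where ELA mouse t-203-1-5 was just above control mouse c-202-1-1. With principal transcript lengths, Cast to Capn1 plus Capn2 was 0.700 in ELA and 0.794 in controls, Capn2 over Capn1 was 1.70 in ELA and 2.01 in controls, and the Capn6 share was 2.88% in ELA and 6.30% in controls, again with no overlap for Capn6. The size of these ratios thus rests on the lengths. They are given as descriptions with no test.

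Genes for proteins that calpains cleave, and genes for microtubule proteins and their regulators, were read from lists. Their values are transcript levels, while calpains cut proteins, so they do not measure cleavage or calpain activity. Of 20 genes for calpain substrates, 0 passed an edgeR adjusted p of 0.05, 1 was higher and 1 lower in ELA at an unadjusted p below 0.05 (3.56% and 2.89% of all genes), and the median log2 fold change was 0.04. The 4 with the highest level were Itgb1 and Ctnnb1, for an integrin subunit and the adhesion protein beta-catenin, and Flna and Vim, for the cytoskeletal proteins filamin A and vimentin. Itgb1 averaged 963.7 CPM in ELA and 1092 CPM in controls, Ctnnb1 1008 and 1024 CPM, Flna 569.8 and 543.1 CPM, and Vim 494.9 and 614.3 CPM, ELA before control. Vim was the gene lower at the unadjusted p (log2 fold change -0.31, edgeR adjusted p = 0.742), and Ezr, for the membrane-cytoskeleton linker ezrin and named after its value was seen, was the one higher (422.7 CPM in ELA and 317.9 CPM in controls, log2 fold change 0.41, edgeR adjusted p = 0.544). Of 14 microtubule genes, 0 passed the adjusted p, where 0.0629% of all genes did. The fitted log2 fold change was positive for 12 and negative for 2, where 47.4% of all genes were negative. The median of the 14 was 0.23, beside 0.01 over all genes. Without t-203-1-4, the library with the highest neuron markers, the median was 0.09, with 11 positive and 3 negative values. Tuba1c, another tubulin gene and named after its value was seen, was the gene with no overlap, at 126.1 CPM in ELA and 107.0 CPM in controls (log2 fold change 0.24, edgeR adjusted p = 0.819). Of all genes, 1.39% were higher in ELA with no overlap. Tubulin gene Tubb5 averaged 600.6 CPM in ELA and 508.1 CPM in controls, tubulin gene Tuba1a 297.4 CPM in ELA and 230.9 CPM in controls, and the microtubule-associated Map4 334.5 CPM in ELA and 368.2 CPM in controls. Mapre1, for a plus-end-binding protein, averaged 258.7 CPM in ELA and 252.8 CPM in controls. Tubb6, named after its value was seen, was the gene past the unadjusted p (155.0 CPM in ELA and 125.5 CPM in controls, log2 fold change 0.31, edgeR adjusted p = 0.714). Of all genes, 3.56% were higher at that unadjusted p, so little is read from either gene.

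Several cell type marker lists also differed in level between the groups. Of 12 mesenchymal cell and fibroblast markers (highest Col1a2 and Col1a1), 11 had a negative log2 fold change (47.4% of all genes did), the median was -0.50, 7 were lower at an unadjusted p below 0.05 where 2.89% of all genes were, and 0 passed the edgeR adjusted p, while DESeq2 called 3. None of these markers was at 0. Their summed level was 12130 to 23540 CPM in ELA and 15860 to 31220 CPM in controls, which overlapped. Their mean log2 CPM, which weights the 12 genes equally, was 7.82 to 8.25 in ELA and 8.26 to 8.66 in controls, which did not. Capn6 minus this mean was -4.81 to -4.51 in ELA and -4.49 to -3.75 in controls on the log2 scale, with means of -4.67 in ELA and -4.04 in controls. The difference of ELA minus control was -0.51 for the marker mean, -1.14 for Capn6 and -0.63 for Capn6 relative to the markers. The gap between the groups after this subtraction was narrow, and its size depends on the markers listed. Their log2 fold changes ran from -1.09 for Postn to 0.01 for Thy1. Capn6 was chosen for its fall, and the part of cell content in that fall was not tested. B lymphocyte markers (highest Ighm and Cd79b) summed to 4.33 to 12.2 CPM in ELA and 23.4 to 44.4 CPM in controls. All 5 were lower at an unadjusted p below 0.05, where 2.89% of all genes were. Ighm passed the edgeR adjusted p, where 0.0251% of all genes were lower. DESeq2 called 4 of the 5 (0.736% of all genes). All 5 secretory ameloblast markers had a positive log2 fold change, as did 8376 of 15909 genes. Of these markers, 2 were higher in ELA with no overlap, where 1.39% of all genes were. Amelx passed the edgeR adjusted p, where 0.0377% of all genes were higher, and DESeq2 called 2. The part of both lists in the Capn6 difference was not tested. The sums of the other marker lists overlapped between the groups. Osteoblast markers (highest Alpl and Bglap) had a median log2 fold change of -0.22, with 2 positive and 4 negative. Alpl was at 0.32, with no overlap between the groups. Ibsp, named after its value was seen, was at -0.92 and was the 1 called by DESeq2. The median was -0.46 for chondrocyte markers (Col11a2 and Col2a1), with 4 negative and Col2a1 at 0.97. For odontoblast markers (Dspp and Phex) it was -0.37 and for osteoclast markers (Ctsk and Mmp9) -0.63, with all 4 negative in each list (47.4% of all genes were). Skeletal muscle markers (Acta1 and Tnnt3) summed to 2.63 to 49.3 CPM in ELA and 3.07 to 37.6 CPM in controls, with the satellite-cell marker Pax7 at 0 in every library. Endothelial markers (Pecam1 and Kdr) summed to 300.9 to 354.6 CPM in ELA and 283.9 to 365.4 CPM in controls, and pericyte markers (Rgs5 and Cspg4) to 564.8 to 979.8 CPM in ELA and 586.2 to 836.6 CPM in controls. Neuron markers (Stmn2 and Zic1) summed to 26.6 to 425.1 CPM in ELA and 21.5 to 30.5 CPM in controls, with the highest value in t-203-1-4. That library stood apart, with 228 genes at 2 CPM or more and at least 10 times as high as in any other library. Without it the log2 fold change of Capn6 was -1.10.

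**Figure D4:**
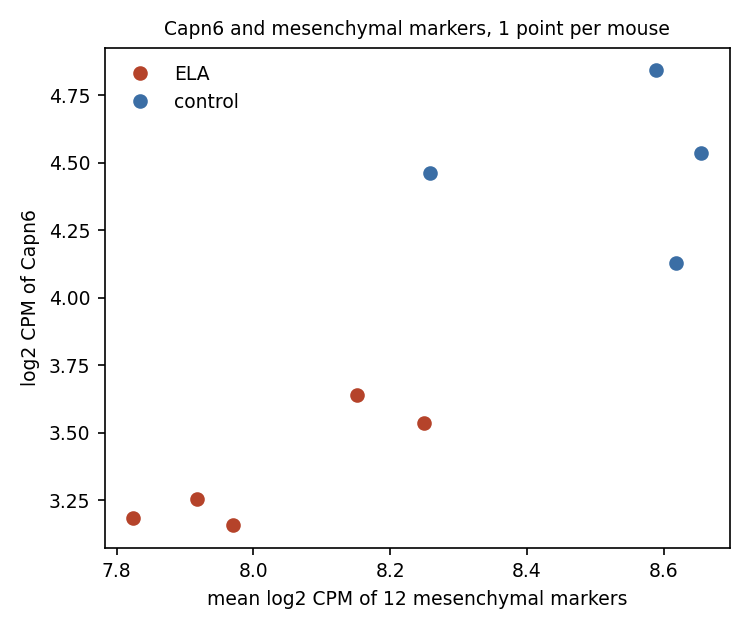
Capn6 log2 CPM (vertical axis) against the mean log2 CPM of 12 mesenchymal markers (horizontal axis), 1 point per mouse, with ELA and control mice in separate colours. ELA mice lie at 7.82 to 8.25 and control mice at 8.26 to 8.66 on the marker axis, and the ELA points are lower on both axes.

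Genes whose pattern over the mice was most like that of Capn6 were ranked by Pearson's r of log2 CPM over the 9 mice. They were Dkk3 (r = 0.972), which encodes a secreted Dickkopf-family protein, Pthlh (r = 0.968), which encodes parathyroid hormone-related protein, Glt8d2 (r = 0.967), Cd72 (r = 0.952), a B lymphocyte surface protein, and Cd74 (r = 0.950), the MHC class II invariant chain. All 9 libraries of a gene share the same 2 groups, so genes that differ between the groups rank high by construction, and no p is given. Dkk3 averaged 92.8 CPM in ELA and 171.3 CPM in controls, Pthlh 26.1 CPM in ELA and 49.8 CPM in controls, and Glt8d2 5.68 CPM in ELA and 11.0 CPM in controls. Cd72 averaged 0.837 CPM in ELA and 1.95 CPM in controls, and Cd74 13.3 CPM in ELA and 29.5 CPM in controls. In all 5 genes every ELA mouse was below every control mouse. By rank correlation, 2 of the 5 stayed among the first 5. After subtracting each group's mean, the most alike genes were Gm10184 (r = 0.938), Gm10736 (r = 0.908), the epithelial keratin gene Krt18 (r = 0.907), Irak1bp1 (r = 0.905) and Fam136a (r = 0.898), and the groups overlapped in all 5. Gm10184 averaged 0.529 CPM in ELA and 0.920 CPM in controls. Gm10736 averaged 1.70 CPM in ELA and 1.29 CPM in controls, so both were low. Picking the top of 15908 genes over 9 mice gives a high r by itself, and nothing is read from this list. Among the members, r with Capn6 over the 9 mice ran from -0.71 for Capn10 to 0.56 for Capns1.

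**Figure D5:**
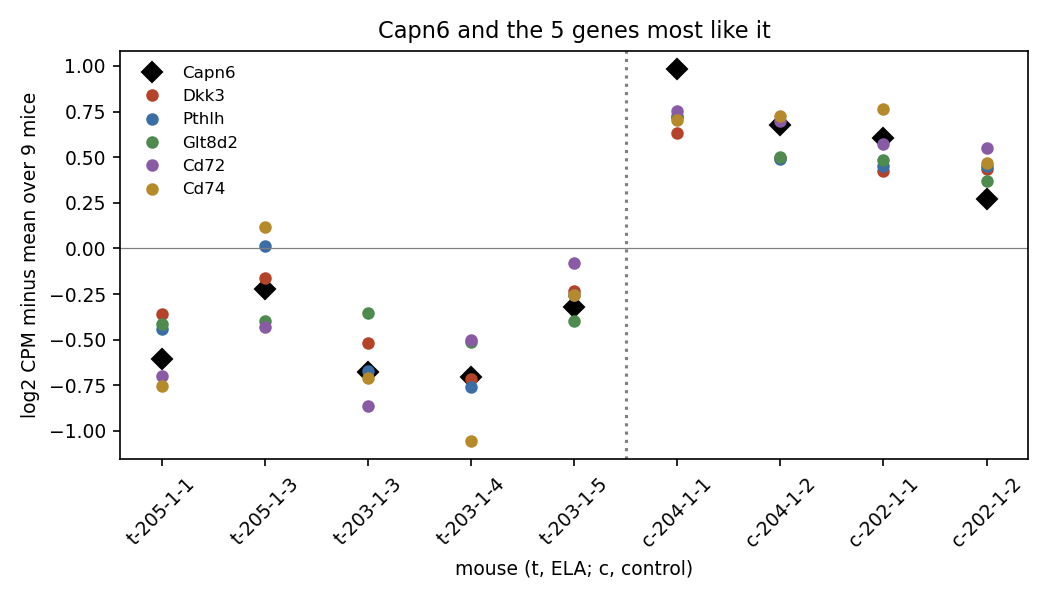
Centred log2 CPM (vertical axis) of Capn6 (diamonds) and of the 5 genes most like it over the 9 mice, with ELA mice left of control mice on the horizontal axis. In all 6 genes the ELA mice lie below the control mice.

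The genes next to Capn6 on the X chromosome were looked at for their own levels. Within 500 kb, 4 genes passed the filter on low counts, and 0 passed an edgeR adjusted p of 0.05, as did 0.0629% of all genes, so that this count says little about 4 genes. Pak3, for a p21-activated kinase, lies 4.43 kb from Capn6 and averaged 10.4 CPM in ELA and 9.15 CPM in controls (log2 fold change 0.18). Alg13, for a glycosylation enzyme, averaged 9.07 CPM in ELA and 8.98 CPM in controls, and Chrdl1, for a BMP antagonist, averaged 2.43 CPM in ELA and 2.48 CPM in controls. Dcx, for the neuronal microtubule protein doublecortin, lies 28.4 kb away and was at 79.3 CPM in t-203-1-4, at most 1.04 CPM in the other ELA mice and at most 0.626 CPM in controls. Its edgeR adjusted p was 0.603. Capn6 was at 8.83 CPM in t-203-1-4, its lowest value. Gm47298, which lies inside Capn6, had 0 counts in every library. Whether the counting used strand is not given in the sources used here. Reads of Capn7 and of Sh3bp5 on the opposite strand (65.3 CPM in ELA and 60.5 CPM in controls) therefore could not be told apart where they overlap, and the same holds for Cast and Erap1 (22.4 CPM in each group).

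Promoters of 8 of the 9 members were found in RefSeq (GRCm38.p6). CG dinucleotides, which are dense in the promoters of many broadly expressed genes, were counted in the 250 bases before each start. The motif CG reads the same on both strands. Where RefSeq lists several starts for a gene, the one nearest the gene start of the table was used. Among these windows the count ran from 3 in Cast to 19 in Capn2, while the 4 Cast starts held 1 to 8 and the 3 Capn15 starts 3 to 18. Capn6 held 5, and 49.6% of all 32851 RefSeq mouse promoters had as few or fewer, against 82.1% for Capn2. The Capn6 window (chrX:143827413-143827662, minus strand) and the Capn2 window (chr1:182517611-182517860, minus strand) are printed with CG in capitals to show the contrast.
Capn6: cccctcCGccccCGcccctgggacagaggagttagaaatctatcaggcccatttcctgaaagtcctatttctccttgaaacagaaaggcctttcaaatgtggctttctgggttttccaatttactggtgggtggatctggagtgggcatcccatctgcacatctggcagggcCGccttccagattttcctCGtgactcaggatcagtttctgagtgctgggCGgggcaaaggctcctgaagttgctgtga
Capn2: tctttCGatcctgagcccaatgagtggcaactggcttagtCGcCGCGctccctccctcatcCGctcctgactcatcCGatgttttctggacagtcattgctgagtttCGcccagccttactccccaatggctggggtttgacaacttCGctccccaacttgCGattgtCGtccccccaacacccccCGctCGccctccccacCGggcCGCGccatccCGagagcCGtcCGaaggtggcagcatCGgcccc
No value here measures binding or methylation at these windows.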

How the data were processed

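Enamel organ RNA was captured with poly(A), fragmented and sequenced, per the labels. The authors deposited 1 table of whole-number counts per gene for the 9 libraries. The submitters' processing notes name CASAVA, HISAT and HISAT2, while the counter, whether it used strand, and the genome build are not stated in these sources. Groups were taken from the treatment label and columns from the sample titles, and 0 sample columns were left unused. The table's own gene lengths gave FPKM. Genes were kept by filterByExpr (minimum count 10), scaled by TMM and fitted with edgeR 4.0.16 (R 4.3.3), with 95% intervals from the standard errors. The alternatives were DESeq2 1.42.0, limma-voom 3.58.1, other filters and scaling, and leaving out each mouse. Principal transcript lengths, overlap in TPM and the microtubule median under each setting were added after seeing the data. Log2 CPM used a prior count of 2. The fits were tested on simulated data. No 2 libraries of a group were repeats of each other, since chi-square over its degrees of freedom was 19.5 to 121.7. Gene coordinates came from the count table and codon positions from GENCODE M21, with active-site codons located by local alignment to Capn2. All members were named, and of each further list the genes past the adjusted p and the 4 with the highest mean CPM, of marker lists the 2 highest, the 5 genes most like Capn6 by each measure, and all tested neighbours within 500 kb. The members and lists were chosen with earlier results of these data known.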

Additional observations from a re-analysis of the deposited data

Results flagged for a closer look

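Of 18 groups examined (9 members, ELA and control), 3 held a mouse that stood apart from the others, where chance gives about 1 in 20 groups. In Capn15 the lowest ELA mouse, t-205-1-1, was at 17.6 CPM, and the highest control mouse, c-202-1-2, was at 26.1 CPM. In Cast the lowest control mouse, also c-202-1-2, was at 118.8 CPM.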

How the results depend on the processing

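The log2 fold change of Capn6 was -1.26 to -1.02 when each mouse was left out and -1.20 to -1.13 under the other settings. There were 17 alternatives. Capn6 was chosen for its fall and its groups did not overlap, so a negative sign in each was largely fixed in advance. It is no support for the fall. The 8 other members, the other calpains, the substrates, the microtubule genes and the neighbours had 0 calls in all 17, and the members' adjusted p ran from 0.657 to 1.0. Without control replicate 1, 2 or 4, 0 of 16232, 16209 and 16178 genes were called in all, so 0 was fixed there. DESeq2, the setting with most calls, called 0.736% of all genes, so these counts say little about short lists. Capn5 was -0.50 to -0.10 when each mouse was left out. The median of the microtubule genes was 0.09 to 0.27 when each mouse was left out. Near-zero values changed sign. Capn7 was -0.023 with plain library totals and -0.024 to 0.12 when each mouse was left out. Capn15 was -0.032 with plain library totals and -0.012 to 0.17 when each mouse was left out. Over all genes, 10 of 15909 were called, against 138 of 18754 by DESeq2 and 38 of 30394 with no filter. With plain library totals 4 of 15909 were called, and 3 of 17629 with counts summed by title number. When each mouse was left out, 0 to 25 were called, of 15687 to 16256 genes. The cause of these differences was not tested. By length of the principal transcript, chosen after seeing the data, Capn6 took place 8 in ELA and 6 in controls, not 9, and Cast took place 2 in both groups, not 5. With these lengths Cast to Capn1 plus Capn2 was 0.700 in ELA and 0.794 in controls, Capn2 to Capn1 was 1.70 in ELA and 2.01 in controls, and the Capn6 share was 2.88% in ELA and 6.30% in controls. By rank correlation, 2 of the 5 genes most like Capn6 stayed among the first 5 by each measure. No paired analysis was possible because the labels give no replicate numbers shared between the groups.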
